A study of Mus musculus with 14 samples.

Results

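The primitive endoderm regulators described here are 9 genes: *Gata4*, *Gata6*, *Sox17*, *Sox7*, *Foxa2*, *Pdgfra*, *Dab2*, *Cubn* and *Amn*. They were picked by name, as genes known to specify or mark this lineage, among the 54446 gene identifiers of the deposited RNA-seq tables, with no threshold on any value. The list was selected with earlier results of these data in view, including the response to mTOR inhibition, so the p-values below describe the size of each difference against the spread between replicates and are not independent evidence. The 14 RNA-seq libraries were made from embryonic stem (ES) cells of the mouse line E14, grown in serum and LIF on gelatin without feeder cells and sorted before RNA extraction. Wild-type (WT) cells were collected at 0, 24, 72 and 144 h of treatment with the mTOR inhibitor INK128 (mTORi), and *Tet1/2* double knockout (DKO) cells at 0, 24 and 72 h, and each of these 7 groups has 2 replicates. mTORi puts ES cells into a dormant state that serves as a model of embryonic diapause, and TET1 and TET2 are enzymes that oxidize methylated cytosine. The DKO cells were made by Cas9 deletions in *Tet1* and *Tet2* and grown from single sorted cells, so the libraries of a genotype are repeats of 1 line, and genotype and clone cannot be told apart.

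The primitive endoderm is the second lineage to separate within the inner cell mass of the blastocyst, where it faces the NANOG-positive epiblast from which ES cells derive. FGF signaling through MAPK turns on the zinc finger factor GATA6, which opposes NANOG and is followed by GATA4, SOX17 and SOX7, while the receptor PDGFRA appears on the surface of the same cells. The maturing cells express the adaptor DAB2 and the endocytic receptor made of cubilin and amnionless, lay down a basement membrane and give rise to parietal and visceral endoderm. Cultures of ES cells in serum are known to hold a small fraction of cells that express these genes. In bulk RNA, fewer expressing cells and less RNA per cell cannot be told apart.

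*Tet2* checked the labels, at 96.0 to 143 TPM (transcript abundance scaled for transcript length and to a fixed total per library) in the WT libraries and 15.9 to 22.2 TPM in the DKO libraries. *Tet1* lay between 191 and 349 TPM in WT and between 147 and 248 TPM in DKO, so its transcript remained in the DKO libraries, where a gene-level value cannot check a deletion of some exons, and *Tet3* lay between 6.03 and 11.3 TPM over all libraries. The 8 ES cell markers (*Pou5f1*, *Sox2*, *Nanog* and others) summed to 4126 to 6326 TPM in every library, against 15.0 to 230.8 TPM for the 9 regulators together. The ES cell label was thus met by its markers in every library. The number of genes with a value above 0 ranged from 28306 to 29927 a library, and mitochondrial transcripts took 2.95 to 5.18%. TPM fix the total of each library, so all differences below are relative to the rest of the transcriptome. On a scale set by the ERCC spike-in RNAs, which was tested as an alternative, the log2 level of the median gene shifted in WT cells by −0.33 after 24 h, by −0.33 after 72 h and by −0.83 after 144 h. In DKO cells the shifts were −0.49 after 24 h and −0.12 after 72 h.

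In the coordinates of mm10, *Gata4* (chr14:63198922-63271692, minus strand) and *Sox7* (chr14:63943673-63950732, plus strand) share a chromosome, as do *Cubn* (chr2:13276338-13491813, minus strand) and *Foxa2* (chr2:148042877-148046969, minus strand). *Sox17* lies at chr1:4490931-4497354 on the minus strand, and *Pdgfra* (chr5:75152292-75198215), *Amn* (chr12:111271095-111276426) and *Dab2* (chr15:6299788-6440712) lie on the plus strand. *Gata6* overlaps the opposite-strand gene *1010001N08Rik* at its start, which had 0.0436 to 6.51 TPM. The use of strand in the quantification is not given in the sources used here, so reads at that overlap may count for either gene. The other overlapping genes, at *Sox17*, *Pdgfra*, *Dab2* and *Cubn*, did not exceed 0.561 TPM.

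RefSeq promoter windows on GRCm38.p6 were matched for 5 of the 9 members (*Foxa2*, *Pdgfra*, *Dab2*, *Cubn* and *Amn*), with 8 windows in all. The 250 bases before the start site are shown for the 3 of these genes that were called at 24 h, *Foxa2* (chr2:148046970-148047219, minus strand), *Pdgfra* (chr5:75152001-75152250, plus strand) and *Dab2* (chr15:6299539-6299788, plus strand). They are printed because TET enzymes act on methylated cytosines of CG pairs, which are in capitals.
Foxa2: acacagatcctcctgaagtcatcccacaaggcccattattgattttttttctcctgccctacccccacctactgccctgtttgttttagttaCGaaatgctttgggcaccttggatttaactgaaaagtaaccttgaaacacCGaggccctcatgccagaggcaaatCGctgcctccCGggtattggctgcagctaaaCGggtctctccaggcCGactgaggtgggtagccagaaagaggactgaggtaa
Pdgfra: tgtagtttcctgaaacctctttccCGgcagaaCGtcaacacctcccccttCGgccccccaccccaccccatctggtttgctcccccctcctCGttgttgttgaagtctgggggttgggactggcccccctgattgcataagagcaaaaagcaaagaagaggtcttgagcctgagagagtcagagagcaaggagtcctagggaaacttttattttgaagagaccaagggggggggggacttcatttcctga
Dab2: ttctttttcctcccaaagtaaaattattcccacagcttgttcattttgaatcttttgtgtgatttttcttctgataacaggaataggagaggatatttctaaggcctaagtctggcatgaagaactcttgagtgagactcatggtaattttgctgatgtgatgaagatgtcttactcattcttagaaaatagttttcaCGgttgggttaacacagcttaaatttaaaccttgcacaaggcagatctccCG
CG pairs number 6 at *Foxa2*, 4 at *Pdgfra* and 2 at *Dab2*, where the median over the 32851 windows of the same length is 6. The letters GATAA, the core of sites recognized by GATA factors, were searched on both strands and occur once at *Dab2*, starting 178 bases before the end of the window, and not in the shown windows of *Foxa2* and *Pdgfra*. The windows shown are those nearest to the deposited gene start. The 2 other *Foxa2* windows, at starts 1020 and 1504 bases from it, hold 20 and 13 CG pairs, the latter with a GATAA match, and the other *Dab2* window, 86959 bases from it, holds 17 and no match. Of all windows, 22.6% hold such a match, so a match is common at this length. Methylation and binding were not analysed here.

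The untreated cells held low levels of every member. In WT cells at 0 h the order of the mean levels ran from *Foxa2* (0.763 TPM ± 0.247, SD, n = 2) through *Sox17*, *Amn*, *Sox7*, *Gata6*, *Pdgfra* and *Gata4* to *Cubn* (11.2 ± 12.0) and *Dab2* (13.1 ± 11.9). The libraries of *Foxa2* and *Sox17* did not overlap, and those of the other neighbours in this order did. At 24 h *Foxa2* and *Amn* had the lowest means, *Cubn* and *Dab2* the highest, and *Gata6*, *Pdgfra* and *Gata4* lay between them at 20.2, 20.4 and 24.7 TPM.

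The GATA factors, which stand at the top of the lineage program, peaked at 24 h in WT cells. *Gata4* was at 1.90 and 5.91 TPM in the 2 WT libraries at 0 h, 17.7 and 31.6 TPM at 24 h, 1.29 and 5.27 TPM at 72 h, and 1.08 and 1.45 TPM at 144 h. In DKO cells *Gata4* was at 6.21 and 1.83 TPM at 0 h, 10.8 and 3.69 TPM at 24 h, and 3.56 and 1.57 TPM at 72 h. Both WT libraries at 24 h were thus above each of the other 12 libraries, and the DKO groups at 0 and 24 h overlapped. *Gata6* was at 1.71 and 4.51 TPM at 0 h, 12.4 and 28.1 TPM at 24 h, 1.33 and 4.86 TPM at 72 h, and 1.31 and 1.91 TPM at 144 h in WT cells. In DKO cells it was at 6.62 and 2.06, then 13.9 and 4.77, then 8.61 and 4.63 TPM. One DKO library at 24 h was therefore above the lower WT library at 24 h, and the 2 genotypes overlapped there.

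The SOX factors, which act below GATA6, were also highest in WT cells at 24 h. *Sox17* was at 1.55 and 1.89 TPM at 0 h, 12.0 and 12.0 TPM at 24 h, 0.666 and 2.37 TPM at 72 h, and 0.433 and 0.345 TPM at 144 h in WT cells. In DKO cells it was at 2.50 and 0.712, then 4.08 and 2.53, then 1.27 and 1.52 TPM, so that no DKO library reached either WT library at 24 h. *Sox7* was at 1.27 and 3.37 TPM at 0 h, 8.25 and 11.0 TPM at 24 h, 0.949 and 3.06 TPM at 72 h, and 0.649 and 0.523 TPM at 144 h in WT cells, and at 2.45 and 1.33, 4.14 and 2.02, and 1.56 and 1.09 TPM in DKO cells. The forkhead factor *Foxa2* was the lowest member in each of the 7 group means. It was at 0.589 and 0.937 TPM at 0 h, 5.22 and 3.14 TPM at 24 h, 0.337 and 0.856 TPM at 72 h, and 0.0823 and 0.257 TPM at 144 h in WT cells. In DKO cells it was at 1.08 and 0.512, 0.950 and 1.20, and 0.221 and 0.505 TPM, and the 0 and 24 h libraries overlapped.

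*Pdgfra*, the receptor for PDGF ligands, was at 1.45 and 5.14 TPM at 0 h, 10.5 and 30.3 TPM at 24 h, 1.45 and 4.89 TPM at 72 h, and 1.81 and 1.51 TPM at 144 h in WT cells. Its DKO values were 5.51 and 2.14, 14.6 and 3.39, and 6.87 and 2.66 TPM, and as for *Gata6* the genotypes overlapped at 24 h. *Dab2*, the clathrin adaptor, had the highest mean of the members in each group, with 4.68 and 21.6 TPM at 0 h, 39.6 and 69.1 TPM at 24 h, 7.91 and 18.1 TPM at 72 h, and 8.52 and 7.12 TPM at 144 h in WT cells. In DKO cells it was at 17.2 and 5.25, 23.0 and 13.4, and 12.3 and 12.0 TPM. *Cubn*, the large ligand-binding subunit of the endocytic receptor, was at 2.69 and 19.7 TPM at 0 h, 41.6 and 39.2 TPM at 24 h, 2.52 and 8.57 TPM at 72 h, and 2.32 and 1.57 TPM at 144 h in WT cells, and at 17.0 and 2.36, 17.6 and 4.84, and 3.80 and 1.51 TPM in DKO cells. *Amn*, its membrane anchor, was at 0.961 and 3.11 TPM at 0 h, 2.23 and 6.32 TPM at 24 h, 0.303 and 1.59 TPM at 72 h, and 0.387 and 0.302 TPM at 144 h in WT cells. In DKO cells *Amn* was at 2.87 and 0.951, 1.94 and 0.835, and 0.565 and 0.255 TPM, the only member whose DKO mean at 24 h was below that at 0 h.

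**Figure D1:**
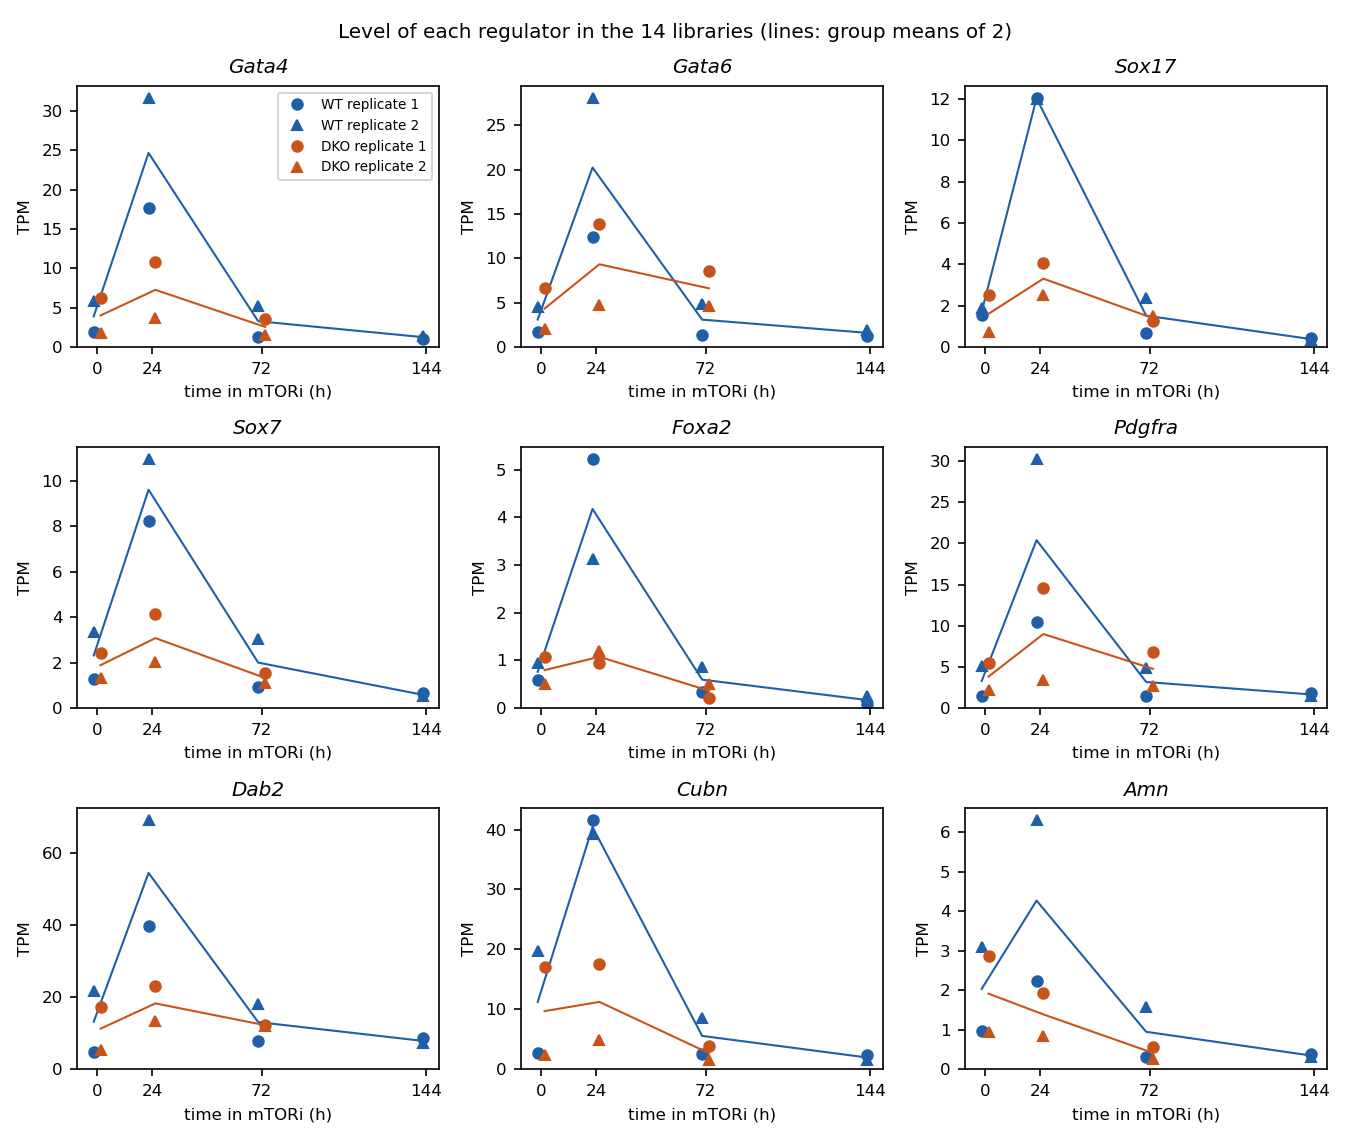
Level of each regulator in TPM (y axis, from 0) against hours of mTORi (x axis) in WT (blue) and DKO (orange) libraries; circles are replicate 1, triangles replicate 2, and lines join the group means of 2. The WT mean of each gene is highest at 24 h, and the DKO mean at 24 h is lower than the WT mean for all 9.

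At 24 h of mTORi, 7 of the 9 regulators rose in WT cells, where 33.3% of all 15878 genes tested were called in either direction. The test was limma on log2(TPM + 1), with Benjamini-Hochberg adjustment over all genes tested. *Gata4* rose by 2.46 ± 0.66 (log2 difference ± SE, limma adjusted p = 0.0160), *Gata6* by 2.35 ± 0.65 (adjusted p = 0.0183) and *Sox17* by 2.26 ± 0.37 (adjusted p = 0.00130). *Pdgfra* rose by 2.29 ± 0.74 (adjusted p = 0.0369), *Dab2* by 2.24 ± 0.66 (adjusted p = 0.0248), *Sox7* by 1.74 ± 0.41 (adjusted p = 0.00879) and *Foxa2* by 1.53 ± 0.27 (adjusted p = 0.00186). *Foxa2* reached the mean of 1 TPM that a gene needed to be tested through the WT 24 h libraries alone (mean of the other 12 libraries 0.627 TPM), so its calls in comparisons with that group give no support, and of the 8 members that would be tested without those libraries 6 rose. The receptor pair did not pass, with 2.24 ± 0.94 for *Cubn* (adjusted p = 0.0917) and 0.78 ± 0.51 for *Amn* (adjusted p = 0.275). In TPM the ratio of the means ran from 2.10 for *Amn* to 6.99 for *Sox17*, and the pseudocount makes the log2 values understate the ratios of low genes such as *Foxa2* (5.47). Between the libraries of replicate 1 the ratios ran from 2.32 to 15.4, and between those of replicate 2 from 1.99 to 6.36. The libraries of the 2 groups did not overlap for 8 of 9 members, all but *Amn*, where this held for 65.9% of all genes tested. The median of the 9 differences was 2.24 against −0.0012 for all genes tested. *Gata4* had the 9th largest rise of all, *Gata6* the 14th, *Pdgfra* the 16th, *Sox17* the 18th, *Cubn* the 20th and *Dab2* the 21st. *Sox7* had the 86th, *Foxa2* the 144th and *Amn* the 1122nd.

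The 24 h difference was positive for all 9 members on both scales. Its median moved between 1.39 and 2.86 when 1 library was left out, and the number called depended on the setting. On the spike-in scale 4 of 9 passed (*Gata4*, *Gata6*, *Sox17* and *Foxa2*), where 9.98% of all genes were called, and without the filter on low values 3 did (*Sox17*, *Sox7* and *Foxa2*), where 12.8% were. With the replicate number as a block within each genotype 8 of 9 passed, all but *Amn*, where 41.1% of all genes were called. *Sox17* and *Foxa2* alone passed when WT 0 h replicate 1 or WT 24 h replicate 2 was left out, where 25% and 21.1% of all genes were called, and the median difference was then 1.39 and 1.83.

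**Figure D2:**
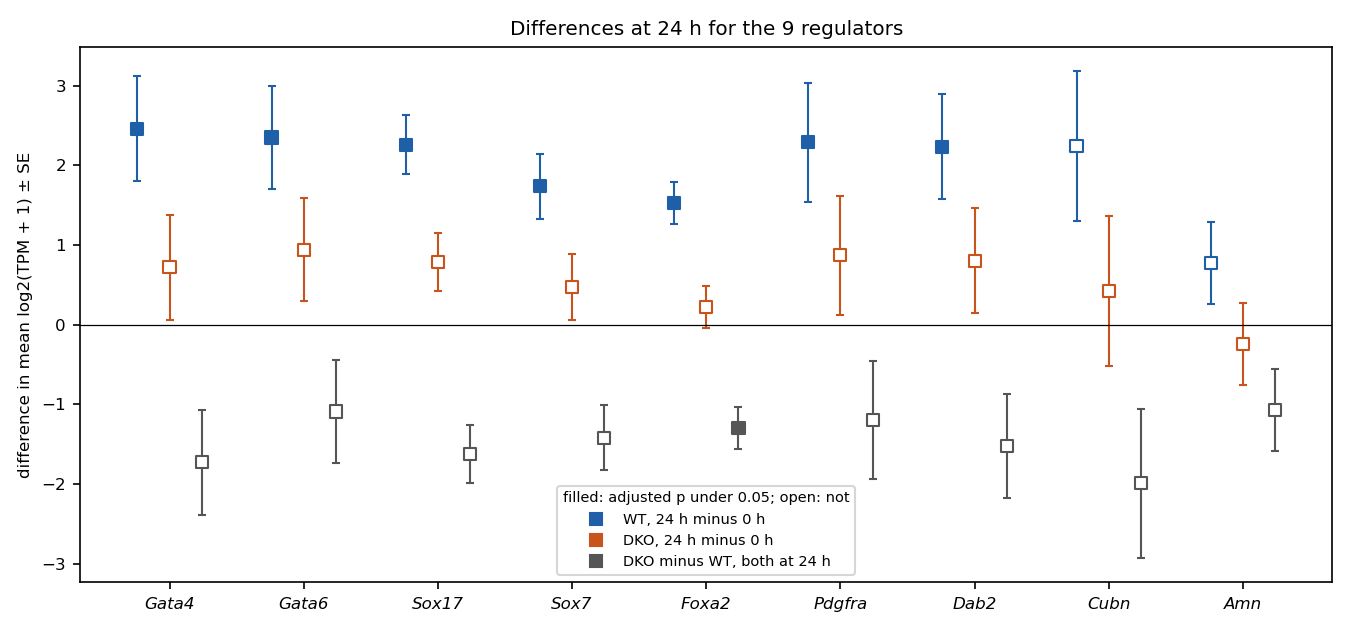
Difference in mean log2(TPM + 1) with its SE (y axis) for each regulator (x axis), for WT 24 h minus 0 h (blue), DKO 24 h minus 0 h (orange) and DKO minus WT at 24 h (grey); filled squares passed an adjusted p of 0.05. The 7 filled blue squares lie between 1.53 and 2.46, no orange square is filled, and *Foxa2* at −1.29 is the only filled grey one.

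The rise did not last. From 24 to 72 h, a step added after the data were seen, 5 of 9 members fell in WT cells, where 12.6% of all genes were called. *Gata4* fell by 2.70 ± 0.66 (limma adjusted p = 0.0261), *Sox17* by 2.46 ± 0.37 (adjusted p = 0.00383) and *Foxa2* by 1.69 ± 0.27 (adjusted p = 0.00485), and *Gata6* and *Sox7* also passed. *Pdgfra*, *Dab2*, *Cubn* and *Amn* had differences of −2.32, −2.03, −2.83 and −1.40 and adjusted p between 0.0673 and 0.102. In TPM the 72 h means were 0.126 to 0.240 times the 24 h means, and the libraries did not overlap for 9 of 9 members, where this held for 57.9% of all genes tested. With the replicate block within each genotype all 9 passed, where 19.6% of all genes were called, and 2 passed (*Sox17* and *Foxa2*) without WT 24 h replicate 2, without WT 72 h replicate 1 or without the filter on low values, where the share of all genes called also fell, to 3.41%, 2.44% and 3.75%. Without WT 24 h replicate 1 there were 3 (these and *Sox7*), where 6.9% were called.

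At 72 h against 0 h, 0 of 9 members passed in WT cells (limma), where 27.2% of all genes were called. An unadjusted p under 0.05 was found for 0 of 9 members and 6272 of 15878 genes. The differences lay between −0.63 for *Amn* and 0.21 for *Dab2*, the only one above 0. Their median was −0.16, and single libraries turned its sign. It was 0.39 without WT 0 h replicate 2 (6 of 9 above 0), 0.36 without WT 72 h replicate 1 (8 of 9), −0.69 without WT 0 h replicate 1 and −0.70 without WT 72 h replicate 2 (0 of 9 each). With spike-in scaling all 9 were below 0 (−0.18 to −1.09). The libraries of these groups overlapped for every member. At 144 h the mean of each member was below its level at 0 h, with ratios of 0.170 for *Amn* and 0.174 for *Cubn* up to 0.596 for *Dab2*. These ratios rest largely on WT 0 h replicate 2. Between the libraries of replicate 1 *Dab2* was 1.82 times and *Pdgfra* 1.25 times as high at 144 h as at 0 h, and without WT 0 h replicate 2 the median difference moved from −0.97 to −0.36, with 2 of 9 above 0. On TPM 0 of 9 passed, where 30.1% of all genes were called, and 3 had an unadjusted p under 0.05, where 6641 of 15878 genes did. *Sox17* came nearest, with −0.97 ± 0.37 (adjusted p = 0.0701). The libraries did not overlap for 6 of 9 members, where this held for 68.8% of all genes tested, so the members were not apart more often than other genes. The call depended on the setting. With the spike-in scale, on which the median gene itself shifted by −0.83, 6 of 9 were lower at 144 h with an adjusted p under 0.05, where 50.5% of all genes were lower, so the count was near that of genes in general. Among the 6 were *Sox17* (−1.72, limma adjusted p = 0.00748) and *Cubn* (−2.50, adjusted p = 0.0215). With the block within each genotype 4 of 9 were lower on TPM (*Gata4*, *Sox17*, *Sox7* and *Amn*), where 16.7% of all genes were lower, and 9 of 9 on the spike-in scale, where 66.3% were. *Sox17* and *Foxa2* passed with a pseudocount of 0.1 (12.7% of all genes lower), and *Sox17* after centring each library on its median (16.4% lower).

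In DKO cells the same 24 h of mTORi gave differences of −0.24 to 0.94, of which 0 of 9 passed (limma), where 28.2% of all genes were called. An unadjusted p under 0.05 was found for 0 of 9 members and 6364 of 15878 genes. The differences were positive for 8 of 9 members on TPM and for 6 of 9 on the spike-in scale. The median was 0.30 on the spike-in scale, where that of all genes was −0.49, and 0.72 on TPM. Leaving out 1 of the 4 libraries moved this median between 0.05 (without DKO 0 h replicate 2, 6 of 9 positive) and 1.40 (without DKO 0 h replicate 1, 9 of 9 positive), and it was 0.09 without DKO 24 h replicate 1 and 1.17 without DKO 24 h replicate 2. *Gata6* had the largest, 0.94 ± 0.65 (adjusted p = 0.314), followed by *Pdgfra* with 0.87 ± 0.74 and *Dab2* with 0.80 ± 0.66, while *Sox17* had 0.79 ± 0.37 (adjusted p = 0.134), *Foxa2* 0.22 ± 0.27 and *Amn* −0.24 ± 0.51. The libraries of the groups did not overlap for 1 of 9 members, *Sox17*, where this held for 58.7% of all genes tested. With the replicate block *Gata6* passed (limma adjusted p = 0.0141), where 35.9% of all genes were called, and without DKO 0 h replicate 1 *Sox17* passed, at 1.31 (adjusted p = 0.0354), where 20.5% were called. At 72 h 0 of 9 passed, where 28.9% of all genes were called, and 0 had an unadjusted p under 0.05, where 6631 of 15878 genes did. *Gata6*, *Pdgfra* and *Dab2* were at 0.61, 0.25 and 0.30 and the others below 0, down to −1.17 for *Cubn*. The median was −0.29, 0.28 without DKO 0 h replicate 1 and −0.57 without DKO 0 h replicate 2. With the block *Amn* was lower (−0.97, limma adjusted p = 0.0327), where 38.5% of all genes were called, and with the block on the spike-in scale *Amn* and *Cubn* were, where 18.5% were called. From 24 to 72 h the DKO differences were below 0 for 9 of 9 members, from −0.33 for *Gata6* to −1.59 for *Cubn*. Their median was −0.73, and −0.39 to −1.09 when 1 library was left out. In this step 0 of 9 passed, where 6.98% of all genes were called. An unadjusted p under 0.05 was found for 2 of 9 members and 4058 of 15878 genes. With the block *Gata4* passed in this step, where 14.4% of all genes were called, and with the block on the spike-in scale *Gata4* and *Cubn* did, where 13.6% were.

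At 0 h, before treatment, 0 of 9 members passed between DKO and WT (limma), where 0.812% of all genes were called. An unadjusted p under 0.05 was found for 0 of 9 members and 2358 of 15878 genes. The differences ran from −0.17 for *Cubn* to 0.32 for *Gata6*, 4 of them above 0. Their median was −0.05, and −0.58 to 0.68 when 1 library was left out. The spike-in scale, on which the median gene was 0.29 higher in DKO cells, put all 9 above 0 (0.01 to 0.63). At 24 h the mean of each of the 9 members was lower in DKO than in WT cells, with ratios of 0.257 for *Foxa2* to 0.461 for *Gata6*. Of these, *Foxa2* passed (−1.29 ± 0.27, limma adjusted p = 0.0432), 1 of 9, where 1.74% of all genes were called, but it was among the genes tested through its WT 24 h level alone, and 0 of the other 8 members passed. *Sox17* came nearest (−1.62 ± 0.37, adjusted p = 0.0592). At an unadjusted p under 0.05 there were 5 of 9 members and 2538 of all 15878 genes tested. The libraries of the genotypes did not overlap for 7 of 9 members, all but *Gata6* and *Pdgfra*, where this held for 41.4% of all genes tested. The call of *Foxa2* was lost on the spike-in scale, where 0.0439% of all genes were called, with a pseudocount of 0.1 (1.84%), without the filter on low values (0.465%), with the replicate number as a block across all libraries (1.01%), and without any one of the 4 libraries compared (0.296% and 0.29% without WT 24 h replicate 1 and 2, and 0.271% and 0.422% without those of DKO). The block across all libraries joins equal replicate numbers of the 2 genotypes. Their replicate differences correlated below 0 in 10 of 12 group pairs, so this block cannot decide the call. The differences between DKO and WT at 24 h remained on the spike-in scale, with 9 of 9 members below 0 and a median of −1.42 against 0.10 for all genes, the same median as on TPM. A block within each genotype leaves no spread with which to compare the genotypes.

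At 72 h 0 of 9 members passed between the genotypes, where 5.21% of all genes were called, and 0 had an unadjusted p under 0.05, where 3600 of 15878 genes did. *Gata6* was at 0.99 ± 0.65 and *Pdgfra* at 0.50 ± 0.74, with mean levels of 6.62 against 3.09 TPM and 4.77 against 3.17 TPM, and *Cubn* was lowest at −0.74 ± 0.94. These differences rested on single libraries. The median was −0.15, −0.54 without WT 72 h replicate 1 (1 of 9 above 0) and 0.52 without WT 72 h replicate 2 (8 of 9). *Sox17* and *Dab2* were at 0.01 each on TPM, and 6 of 9 members were above 0 with spike-in scaling, where the median gene was 0.49 higher in DKO cells. Averaged over 0, 24 and 72 h, *Foxa2* was lower in DKO cells (−0.50 ± 0.15, limma adjusted p = 0.0448), 1 of 9 where 19.6% of all genes were called. This fit counts the 3 time points of a replicate as independent. With 1 mean per replicate set, 2 sets against 2 (added after the data were seen), *Foxa2* had an adjusted p of 0.2001 (limma), and 0 of 9 members and 3 of 15878 genes (0.0189%) passed. The call was also lost under the same alternatives of scale, pseudocount, filter and block as at 24 h, where 8.86%, 19.5%, 6.82% and 17.1% of all genes were called. Leaving out 1 library at a time gave 0 to 3 of 9 (*Sox17*, *Sox7* and *Foxa2* without WT 72 h replicate 1, where 15.1% of all genes were called). This average also includes the WT 24 h libraries through which *Foxa2* came to be tested.

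An interaction term compared the 24 h response of DKO with that of WT cells, and it was negative for 9 of 9 members, with a median of −1.42 and a range of −1.02 for *Amn* to −1.82 for *Cubn*. None passed (limma, adjusted p = 0.9995 for each), and 2 of 9 had an unadjusted p under 0.05, *Foxa2* (−1.31 ± 0.37, unadjusted p = 0.00559) and *Sox17* (−1.47 ± 0.52, unadjusted p = 0.0170). The share of all genes called in this interaction was 0%, with 620 of 15878 at an unadjusted p under 0.05. The SE of the interaction was 0.37 for *Foxa2* to 1.33 for *Cubn*. Leaving out 1 of the 8 libraries moved the median between −0.79 (without WT 0 h replicate 1) and −1.99 (without DKO 0 h replicate 2), with 9 of 9 members below 0 each time. A smaller 24 h response in DKO cells was thus not shown by the test, also with the block within each genotype, where the smallest adjusted p of the members was 0.413 on TPM and 0.0750 on the spike-in scale. At 72 h the interaction lay between −0.57 for *Cubn* and 0.67 for *Gata6*, 0 of 9 passed (0 at an unadjusted p under 0.05), and the share of all genes called was 0%, with 577 at an unadjusted p under 0.05. Its median was −0.13, and −0.60 to 0.64 when 1 library was left out, with 2 of 9 above 0 without WT 0 h replicate 2 and all 9 above 0 without WT 72 h replicate 2. The time comparisons within a genotype share their 0 h libraries, and each interaction uses the libraries of the comparisons it is made from.

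The spread between replicates was itself shared by the members. At 0 h in WT cells replicate 2 was above replicate 1 for 9 of 9 members, by a median of 1.07 on the log2(TPM + 1) scale and by up to 2.49 for *Cubn*, where the 5th and 95th percentiles of all genes tested were −0.38 and 0.72. The same held for 9 of 9 members at 72 h (median 1.10), for 6 of 9 at 24 h (median 0.79) and for 3 of 9 at 144 h (median −0.09). In DKO cells the order was opposite. Replicate 1 was above replicate 2 for 9 of 9 members at 0 h (median −1.05), for 8 of 9 at 24 h (median −0.76) and for 7 of 9 at 72 h (median −0.32). The summed level of the 9 genes in WT cells at 0 h was thus 16.8 TPM in replicate 1 and 66.1 TPM in replicate 2, and in DKO cells 61.4 and 17.2 TPM. At 24 h the sums were 149.5 and 230.8 TPM in WT cells and 91.1 and 36.7 TPM in DKO cells, so both WT libraries were above both DKO libraries. At 144 h the WT sums were 16.6 and 15.0 TPM, the closest pair of the 7 groups. The replicate numbers carry no order. The labels give only these numbers, and the reporting summary of the study calls its replicates biological and its experiments independently repeated. They are repeats of 1 line per genotype, so the p-values measure the spread between such repeats.

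**Figure D3:**
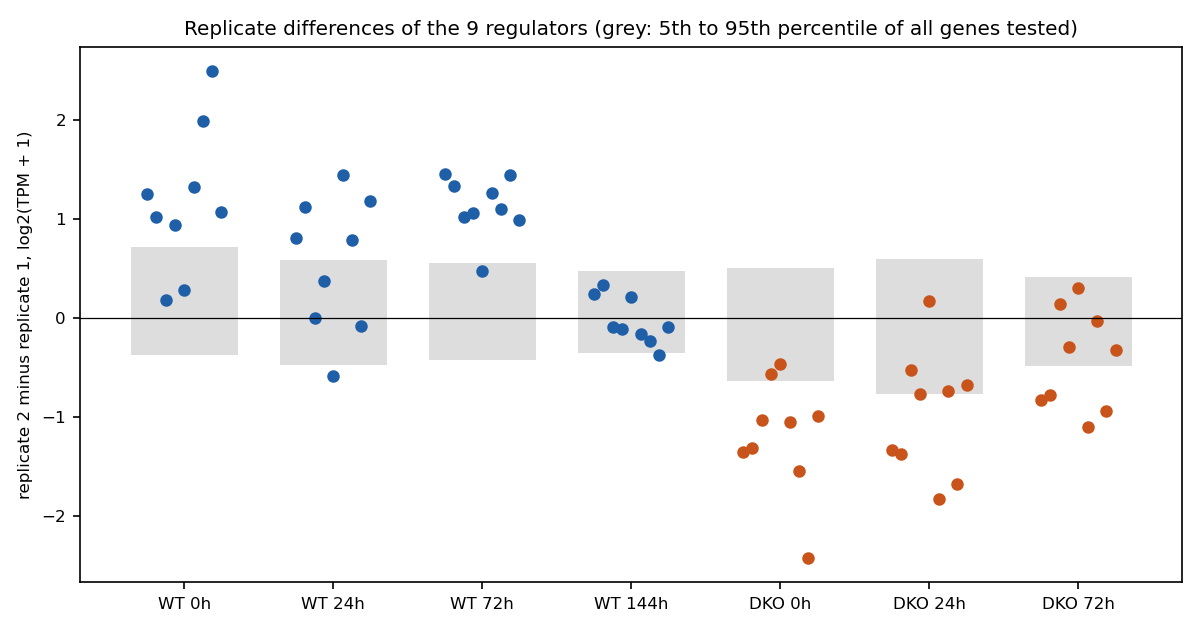
Replicate 2 minus replicate 1 in log2(TPM + 1) (y axis) for the 9 regulators (points, in the order *Gata4*, *Gata6*, *Sox17*, *Sox7*, *Foxa2*, *Pdgfra*, *Dab2*, *Cubn*, *Amn*) in each group (x axis), with the 5th to 95th percentile of all genes tested in grey. All 9 points are above 0 in WT at 0 and 72 h and all 9 below 0 in DKO at 0 h, and the medians in these groups are outside the grey range.

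Across the 14 libraries the levels of the members moved together. Pearson's r of log2(TPM + 1) over the 36 pairs of members lay between 0.715 and 0.982 with a median of 0.893, as a description over libraries that share groups and lines. The pairs of highest r were *Gata4* with *Sox7* (0.982) and *Gata6* with *Pdgfra* (0.976). The genes most like each member among all genes tested were partly other members. For *Gata4* they were *Sox7*, *Srgn* (0.979) and *Nostrin* (0.975), and for *Sox7* they were *Srgn* (0.987), *Gata4* and *Flrt3* (0.978). *Sox17* was most like *Bmper* (0.980), *Srgn* (0.968) and *Sox7* (0.963), and *Foxa2* was most like *Dram1* (0.964), *Pth1r* (0.961) and *Lama1* (0.956), of which *Pth1r* is a parathyroid hormone receptor of parietal endoderm and *Lama1* a basement membrane laminin. For *Gata6* they were *Pdgfra*, *Gaa* (0.947) and *Furin* (0.941), and for *Pdgfra* they were *Gata6*, *Gaa* (0.964) and *Runx1* (0.957). *Dab2* was most like *Slc33a1* (0.943), *Flrt3* (0.941) and *Plod1* (0.941), *Rab3il1* (0.958) and *Gata4* (0.950) were among the genes most like *Cubn*, and *Amn* was most like *Fgf3* (0.959), *Fgfr2* (0.947) and *Ostm1* (0.927).

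Of all genes tested, 17.6% rose and 15.7% fell in WT cells at 24 h, 13.2% rose and 15.1% fell in DKO cells, and 0.989% were lower in DKO than in WT cells at 24 h, which are the shares to set beside the counts of each list below. On the spike-in scale 1.25% rose and 8.73% fell in WT cells, and 0.505% rose and 18.7% fell in DKO cells, while 0.0439% (8 of 18232) differed between the genotypes at 24 h. That scale moved the median of all genes to −0.33 in WT and −0.49 in DKO cells at 24 h, and the difference between the genotypes at 24 h to 0.10. Among the other genes of the pathway, the basement membrane genes rose most widely at 24 h in WT cells. Of 10 tested, 9 rose and 0 fell, where 17.6% of all genes rose, with a median difference of 1.16 against −0.0012 for all genes. The type IV collagen chain *Col4a2* rose by 2.58 (limma adjusted p = 0.000111), the laminin chain *Lama1* by 2.50, *Col4a1* by 2.10 and *Lamb1* by 1.76, and *Nid1* did not pass (0.22). Their summed level was 879 and 936 TPM at 0 h and 2505 and 1840 TPM at 24 h in WT cells. In DKO cells 3 of 10 rose at 24 h (*Lama1* by 1.14, *Col4a2* by 0.77 and *Nid2* by 0.71), with a median of 0.46 and sums of 913 and 947 TPM at 0 h and 1106 and 1393 TPM at 24 h. At 24 h 6 of 10 were lower in DKO than in WT cells, where 0.989% of all genes were, *Lama1* (−1.77, adjusted p = 0.0135), *Lamb1* (−1.61), *Col4a1* (−1.46) and *Col4a2* (−1.45) among them, with a median of −0.83. On the spike-in scale 4 of 10 rose in WT cells and 0 of 10 in DKO cells, where the median of −0.10 was below 0 but above the −0.49 of all genes. Between the genotypes 0 of 10 passed on that scale, where 0.0439% of all genes did, and the median difference was −0.74, against −0.83 on TPM.

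Parietal endoderm genes were also raised in WT cells, and 2 of them, *Lamb1* and *Sparc*, are also in the basement membrane list. Of 8 tested, 5 rose and 0 fell in WT cells at 24 h (median 1.11), where 17.6% of all genes rose, *Pth1r* by 1.87, *Lamb1* by 1.76, the epithelial-mesenchymal transition factor *Snai1* by 1.45 and *Sparc* by 1.13. *Plat*, also tested, reached the mean of 1 TPM through the WT 24 h libraries alone (3.42 TPM there, 0.423 to 1.48 TPM in the other groups). Its part in comparisons with that group gives no support. In DKO cells 1 rose, *Snai1* by 1.003 (median 0.28), and at 24 h 4 of 8 were lower in DKO than in WT cells (median −0.87), *Pth1r* by the most (−1.65, limma adjusted p = 0.0227). With spike-in scaling 3 rose in WT cells, 2 were lower at 24 h in DKO cells, where the median of −0.20 was above the −0.49 of all genes. Between the genotypes 0 of 8 then passed, where 0.0439% of all genes did, with a median difference of −0.85 against −0.87 on TPM.

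Of 10 other endoderm transcription factors tested, 4 rose and 0 fell in WT cells at 24 h (median 0.40), where 17.6% of all genes rose, among them the forkhead factor *Foxq1* by 2.44 (limma adjusted p = 0.00395), *Hnf4a* by 0.81 and *Otx2* by 0.74. Another tested gene of this list, not named here, reached the mean of 1 TPM through the WT 24 h libraries alone. Its part in comparisons with that group gives no support. In DKO cells 0 of 10 passed at 24 h (median 0.23), and 0 differed between the genotypes at that time (median −0.11). Before treatment, at 0 h, 1 of 10 was higher in DKO than in WT cells (limma), where 0.812% of all genes were called. After spike-in scaling 1 of 11 rose in WT cells, and the DKO median was −0.22, against −0.49 for all genes. *Hnf4a* was at 1.21 and 1.599 TPM in WT and 4.219 and 3.605 TPM in DKO cells at 0 h. At 24 h it was at 2.76 and 3.70 TPM in WT and 4.89 and 4.12 TPM in DKO cells. Both DKO libraries were thus above both WT libraries already before treatment, and again at 24 h.

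Of the 9 endocytosis partners of the cubilin receptor, 4 rose and 1 fell in WT cells at 24 h (median 0.18), where 17.6% of all genes rose and 15.7% fell. The motor *Myo6* rose by 1.77 (limma adjusted p = 0.000400), the chaperone *Lrpap1* by 1.23, the co-receptor *Lrp2* by 0.67 and the clathrin heavy chain *Cltc* by 0.40, and the light chain *Clta* fell by 0.48. In DKO cells 2 rose, *Myo6* by 1.18 and *Lrpap1* by 0.76, and 3 fell, *Clta* by 0.75 the most (median −0.0024). At 24 h *Lrp2* (−0.98), *Lrpap1* (−0.79) and *Ap2m1* (−0.39) were lower in DKO than in WT cells, 3 of 9 (median −0.39). On the spike-in scale 1 rose in WT cells, 3 fell and 0 rose in DKO cells, and the WT median was −0.19, against −0.33 for all genes. Between the genotypes 0 of 9 passed on that scale (0.0439% of all genes), with a median of −0.29.

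Of the 13 visceral endoderm genes, 5 never exceeded 1 TPM in any library, *Afp* and *Ttr* among them. Of 6 tested, *Apoe* rose by 1.30 and *Lefty1* fell by 1.65 in WT cells at 24 h (median −0.17), and *Spink1* fell by 0.72 in DKO cells (median −0.67). *Spink1* was lower in DKO than in WT cells before treatment, at 8.65 and 8.54 against 33.4 and 31.9 TPM at 0 h (−1.81, limma adjusted p = 0.0124). It was also lower at 24 h (−2.17, adjusted p = 0.00380, list median −0.47) and at 72 h (−2.71, adjusted p = 0.000835), and the interaction for its 24 h response did not pass (−0.36 ± 0.32, limma adjusted p = 0.9995). By spike-in scaling, where 8 of them passed the filter, 1 was lower in WT cells at 24 h and 3 in DKO cells.

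The inputs of the lineage showed no shared direction. Of 13 FGF and MAPK genes, 2 rose and 3 fell in WT cells at 24 h (median −0.06), with *Spry2* (0.74) and *Spry4* (0.49), both feedback inhibitors, among the rises and *Fgf4* (−0.48) and *Ptpn11* (−0.39) among the falls. In DKO cells 2 rose and 4 fell (median −0.05), of which *Spry2* (0.72) and *Mapk3* (−0.78) had the largest differences, and 0 differed between the genotypes at 24 h (median 0.10). On the spike-in scale 0 of 13 rose in either genotype, 0 fell in WT cells and 4 fell in DKO cells. Of 4 PDGF ligands and partner receptor, the ligand *Pdgfc* fell by 1.49 in WT and by 1.22 in DKO cells at 24 h (list medians 0.07 and 0.19), *Pdgfrb* rose by 0.50 in DKO cells on TPM but not on the spike-in scale, and 0 differed between the genotypes (median −0.11). *Nanog*, the epiblast factor that opposes *Gata6*, was at 322 and 344 TPM at 0 h, 275 and 301 TPM at 24 h, 154 and 214 TPM at 72 h, and 207 and 230 TPM at 144 h in WT cells. It did not pass at 24 h (−0.21 ± 0.20, limma adjusted p = 0.444) and was lower at 72 h (−0.87, adjusted p = 0.00932), when the means of the members were 0.465 to 0.996 times those at 0 h.

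**Figure D4:**
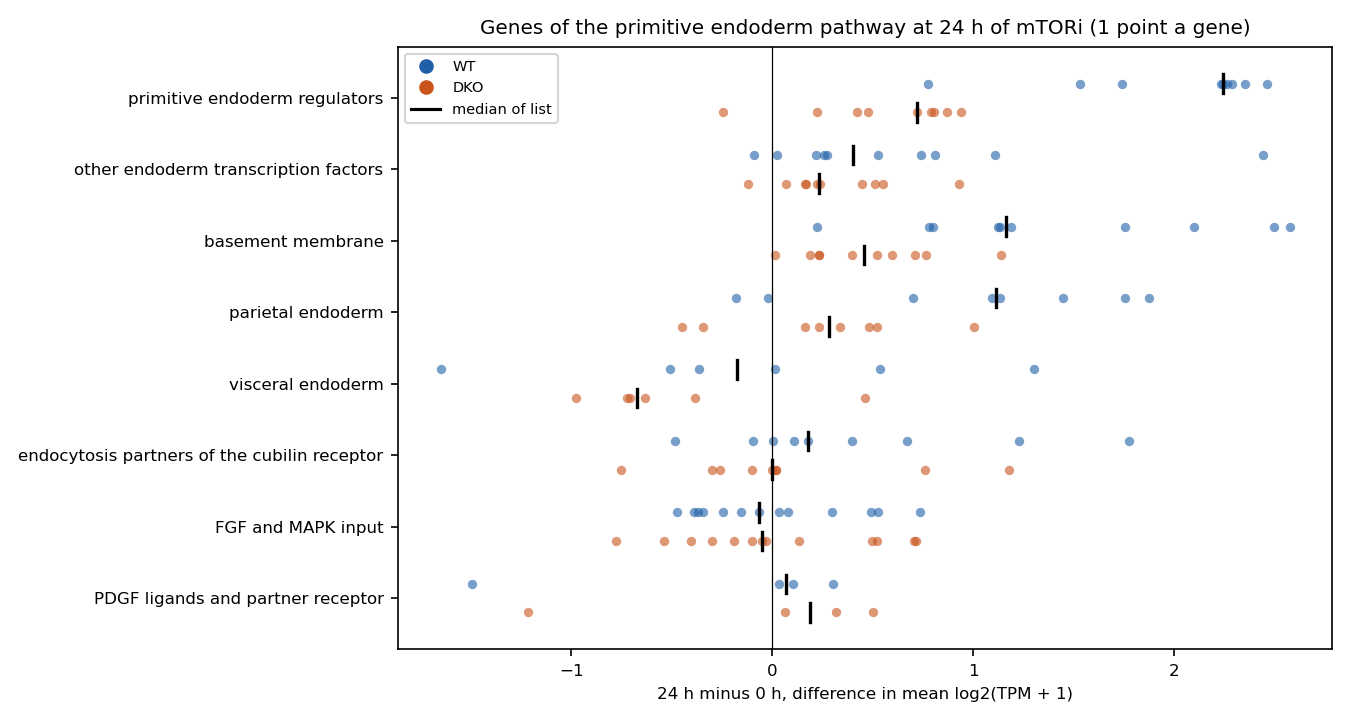
Difference in mean log2(TPM + 1) between 24 and 0 h (x axis) for each tested gene (points) of the 9 regulators and 7 pathway lists (y axis), in WT (blue) and DKO (orange) cells, with list medians as black bars. The median is 2.24 in WT and 0.72 in DKO cells for the regulators, and 1.16 and 0.46 for the basement membrane.

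Markers of other cell types were compared with the same libraries. The trophectoderm markers, 8 genes of which *Krt8* and *Krt18* are keratins also expressed in endoderm, summed to 145 and 87.6 TPM in WT cells at 24 h, against 48.7 and 70.3 TPM at 0 h, 24.6 to 31.1 TPM at 72 and 144 h, and 76.6 and 73.3 TPM in DKO cells at 24 h. This sum moved with the regulators in WT cells. Of its 4 tested genes 0 passed at 24 h (limma, 0 on the spike-in scale), and 2, *Krt8* and *Krt18*, rose with the block within each genotype (1.31 and 1.36). *Krt8* was at 13.4 and 10.3 TPM at 0 h and 55.7 and 16.8 TPM at 24 h in WT cells, and *Krt18* at 11.9 and 11.7, then 65.4 and 15.4 TPM. In DKO cells *Krt8* was at 8.80 and 18.0 TPM at 0 h and 7.95 and 24.9 TPM at 24 h, and *Krt18* at 8.21 and 16.2, then 12.0 and 29.95 TPM. At 24 h both keratins were thus higher in replicate 1 in WT and in replicate 2 in DKO cells, the opposite of the order most regulators had. *Tfap2c*, a factor of trophectoderm and germ cells, was at 17.9 and 39.3 TPM at 0 h, 15.1 and 45.6 TPM at 24 h and 5.11 and 8.65 TPM at 72 h in WT cells, and at 38.4 and 15.3, 52.7 and 9.61, and 10.4 and 6.56 TPM in DKO cells, so its replicates differed in the same direction as those of most regulators, unlike those of the keratins. *Cdx2* and *Elf5* did not exceed 1.18 and 0.114 TPM, and no marker was at 0 in every library. Its part in the result was not tested. Definitive endoderm and mesendoderm markers, which would share *Sox17*, *Foxa2* and *Gata6* with the primitive endoderm, summed to 4.65 to 9.82 TPM over the 14 libraries, and 0 of 3 tested passed at 24 h in WT cells. The fibroblast markers summed to 1.31 to 17.8 TPM, and the only one that ever exceeded 1 TPM, *Thy1*, fell by 1.39 in WT cells at 24 h. Neuroectoderm markers summed to 5.53 to 17.5 TPM, and 1 of 3 tested, *Nes*, fell in WT cells at 24 h. Of the 8 ES cell markers 4 rose and 0 fell in WT cells at 24 h on TPM, with *Klf4* by 1.45 as the largest, and 0 passed on the spike-in scale. The 2-cell-like markers, which include near-identical *Zscan4* copies whose reads cannot be told apart with certainty, summed to 5.38 to 166 TPM, and 3 of 4 tested fell at 24 h in WT as in DKO cells.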

How the data were processed

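RNA-seq of 14 libraries was analysed. Per the paper's methods and the labels, the authors depleted ribosomal RNA, trimmed the reads (cutadapt 2.4), aligned them to mm10 (STAR, 2.7.3a in the submitters' processing notes) and quantified GENCODE VM19 genes with stringtie (2.0 in those notes). The deposited values are TPM per gene, which sum to 1000000 in a library and hold no ERCC entry. Depth is unknown from TPM, so no counting error is given, and the 2 replicates of a group limit the precision. The authors used DESeq2, which needs counts.

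Entries of 1 gene identifier were summed. Genes whose mean over the libraries was 1 TPM or more, 15878 in all, were analysed as log2(TPM + 1) in limma 3.58.1 (R 4.3.3), with a mean-variance trend, all 7 groups in 1 fit and Benjamini-Hochberg adjustment over all genes tested, and called at an adjusted p under 0.05. All 9 members passed this filter. *Foxa2* passed it through 1 group alone. The 11 comparisons were each time against 0 h within a genotype, DKO against WT at each time and averaged, and the difference of the responses. The steps from 24 to 72 h (2 comparisons) were added after the data were seen. The fit was tested on simulated data.

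The spike-in scale multiplies each library by a factor, read as the constant ratio of 482 to 540 entries of the study's spike-in normalized table to the deposited TPM. It was kept as an alternative, because it rests on a table outside the deposited files. It lets 18232 genes pass the filter. The factors ran from 1 to 2.815. They were 2.235 and 1.357 in the 2 libraries of DKO at 24 h and 2.533 and 1.727 in those at 72 h, but 2.111 in both of WT at 0 h. Such differences enter the spread between replicates on that scale, and their part in the loss of calls was not tested. Time points of a replicate were processed in parallel according to the study's reporting summary. Replicate differences of 2 groups correlated over 0.1 across genes in 5 of 6 group pairs within WT (0.0680 to 0.461) and 3 of 3 within DKO (0.247 to 0.405), whereas 10 of 12 pairs of a WT with a DKO group gave a value below 0. The numbers thus line up libraries within a genotype, and a replicate block was fitted within each genotype. Between the genotypes the values ran from −0.553 to 0.144, so equal numbers did not line up there. Whether opposite numbers belong together is not given by the labels. A block of that kind was not fitted, so the comparisons of DKO with WT leave out any such pairing.

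The members and the 13 gene lists (7 of the pathway, 6 of cell type markers) were chosen with earlier results of these data known. Named were all members, up to 4 of the called genes of a list with the largest change, genes not called with their values, the 3 genes of highest Pearson r with each member (genes under 200 bp left out), *Tet1*, *Tet2*, *Tet3* and *Nanog*. Other genes named were chosen after their values were seen (*Hnf4a*, *Plat*, *Cdx2*, *Krt8*, *Krt18*, *Tfap2c*, *Elf5*, *Afp* and *Ttr* as examples of levels, and genes at overlaps). The other alternatives were limma without trend, median centring, a pseudocount of 0.1, no filter, a block across all libraries, and each library left out. With 1 library left in a group, its spread was taken to be that of the other groups. Promoter windows are RefSeq's, on GRCm38.p6. Single values of some listed genes are not reported here.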

Additional observations from a re-analysis of the deposited data

How the results depend on the processing

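No member reversed its direction with a passing test under any alternative. Counts below are of members, of 9, with an adjusted p under 0.05. The share of all genes called also changed with the setting, and is printed above beside the counts described there. Where no share is printed, a changed count shows no gain or loss for the members. WT 24 h against 0 h gave 7, with 4 on the spike-in scale, 3 with no filter on low values and 6 with the block across all libraries. WT 72 h against 0 h gave 0, and 1 when spike-in scaling and the replicate block within each genotype were combined. WT 144 h against 0 h gave 0, with 6 on the spike-in scale, 1 after median centring, 2 with a pseudocount of 0.1, 4 under the replicate block within each genotype, and 9 with block and spike-in scale together. DKO 24 h against 0 h gave 0, with 1 under that block and 0 with the spike-in scale added. DKO 72 h against 0 h gave 0, with 1 under the block and 2 with the spike-in scale added. DKO against WT at 24 h, and averaged over 0, 24 and 72 h, gave 1 each, and 0 on the spike-in scale, with a pseudocount of 0.1, with no filter, and with a replicate block across all libraries. The average also gave 0 with 1 mean per replicate set. WT 72 h against 24 h gave 5, and 4 on the spike-in scale, where 78 of 18232 genes were higher and 102 lower. It gave 4 under the block across all libraries, 2 when there was no filter and 9 under the block within each genotype on either scale. DKO 72 h against 24 h gave 0, with 1 under the block and 2 with the spike-in scale added. The comparisons from 24 to 72 h, the block on the spike-in scale and the mean per replicate set were chosen after seeing the data. Leaving out 1 of the libraries compared gave 2 to 8 for WT 24 h against 0 h (fewest without WT 0 h replicate 1 or WT 24 h replicate 2), 0 to 1 for DKO 24 h against 0 h (1 without DKO 0 h replicate 1), 0 for DKO against WT at 24 h, 0 to 3 for the average (3 without WT 72 h replicate 1) and 2 to 5 for WT 72 h against 24 h. The causes were not tested. The block within each genotype gave 8 for WT 24 h against 0 h and, beside the counts above, changed no other count of members on TPM. Each group has 2 libraries and TPM keep no depth, so levels under 1 TPM, such as those of *Foxa2* and *Amn* at 144 h, have no counting error to set beside them.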
